A study of Mus musculus with 9 samples.

Results

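Genes of the contractile myosin machinery were followed through the culture activation of mouse hepatic stellate cells and a knockdown of caveolin-1. The 10 genes were chosen by symbol with no cut on a measured value, but with earlier results of these data known. The heavy chains were the non-muscle Myh9, Myh10 and Myh14 and the smooth muscle Myh11. The others were the light chains Myl6, Myl9, Myl12a and Myl12b, the kinase Mylk and the actin-binding protein Lmod1. The array carried 29 probes annotated to the 10 genes, of 56605 non-control probes and 37008 gene names in all. Hepatic stellate cells are the vitamin A storing pericytes of the liver sinusoid, which become contractile, matrix-producing myofibroblasts when they are kept on a stiff surface. The cells came from the livers of C57BL/6 mice of 10 weeks, isolated by collagenase perfusion. RNA of 3 groups with 3 arrays each was measured on 1-colour Agilent arrays. The first group was quiescent cells without treatment, and the labels do not give the hour at which they were harvested. The other groups were cells grown for 7 days on a hard plate and then transfected overnight with 5 nM of either a control siRNA or a Cav1 siRNA. No untransfected activated cells were measured, so in these data growth on plastic and transfection with the control siRNA cannot be told apart. Whether replicate arrays stand for different mice or culture dishes is not stated in the labels. The p-values therefore measure the spread between these arrays, which may be technical.

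Conventional myosins are hexamers of a pair of heavy chains, a pair of essential light chains and a pair of regulatory light chains. Phosphorylation of the regulatory light chain by calcium- and calmodulin-dependent myosin light chain kinase switches on filament assembly and motor activity, and myosin phosphatase reverses it. In stellate cells this machinery is known for the contraction that narrows the sinusoid and for the pull of myofibroblasts on their matrix.

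Values below are log2 signals relative to the 75th percentile of the array, so that 0 is that percentile and 1 unit is a 2-fold change. Quiescent arrays correlated with each other at 0.970 to 0.984 and control siRNA arrays with Cav1 siRNA arrays at 0.990 to 0.996. Quiescent with control siRNA arrays gave 0.705 to 0.719. The target gene Cav1, which encodes the caveola coat protein caveolin-1, was at -1.34, -1.12 and -1.09 with control siRNA and at -2.87, -2.89 and -3.07 with Cav1 siRNA. Its change was -1.76 (SE 0.24), 3.40-fold lower, with an unadjusted p of 4.8e-05 and an adjusted p of 0.145 in the limma fit over 23965 genes. The quiescent preparations also carried strong signal of other liver cell types. The summed linear signal of 10 hepatocyte markers, in multiples of the 75th percentile, was 1050 to 1204 on the quiescent arrays and 0.433 to 0.566 on the control siRNA arrays. The sums were 317 to 524 against 0.524 to 0.609 for 10 endothelial markers, 233 to 391 against 8.45 to 9.58 for 10 macrophage markers, 35.1 to 84.6 against 1.23 to 1.44 for 9 lymphocyte and neutrophil markers, and 226 to 347 against 0.0587 to 0.0615 for 3 erythroid markers, and each of these genes fell. All 9 measured stellate markers were above background on all 3 quiescent arrays, with sums of 27.5 to 75.4 against 50.9 to 52.7 after culture, where 2 were higher and 4 lower and Lrat, the retinol esterifying enzyme, was not above background. In bulk RNA, fewer cells of a type and less RNA per cell cannot be told apart, and the part of these other cells in the changes of the myosin genes was not tested.

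In control siRNA cells 7 of the 9 myosin genes that passed the filter on background were higher than in quiescent cells and 2 were lower, at a Benjamini-Hochberg adjusted p under 0.05 from limma over all genes. The same comparison called 68.1% of all genes tested, 42.1% as higher and 26% as lower, so the count of calls alone is not particular to these genes. The median change was 1.48 over the 9 genes and 0.32 over all genes. The sizes ran from a 40.3-fold rise of Myh10 to a 13.1-fold fall of Myh14. Lmod1 did not pass the filter and was not tested. With a normexp background correction and scaling to the 75th percentile, the share of higher genes among all calls was 46.2% in place of 61.8%, and the median of all genes moved by -0.44. With normexp and quantile normalization the share was 60.2% and the median moved by -0.17. On single arrays the groups did not overlap for any of the 9 genes, 7 with the cultured arrays above and 2 with them below, against 69.8% of all genes (42.8% above, 27% below). The gap was narrowest for Myh11 and Myl12b.

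**Figure D1:**
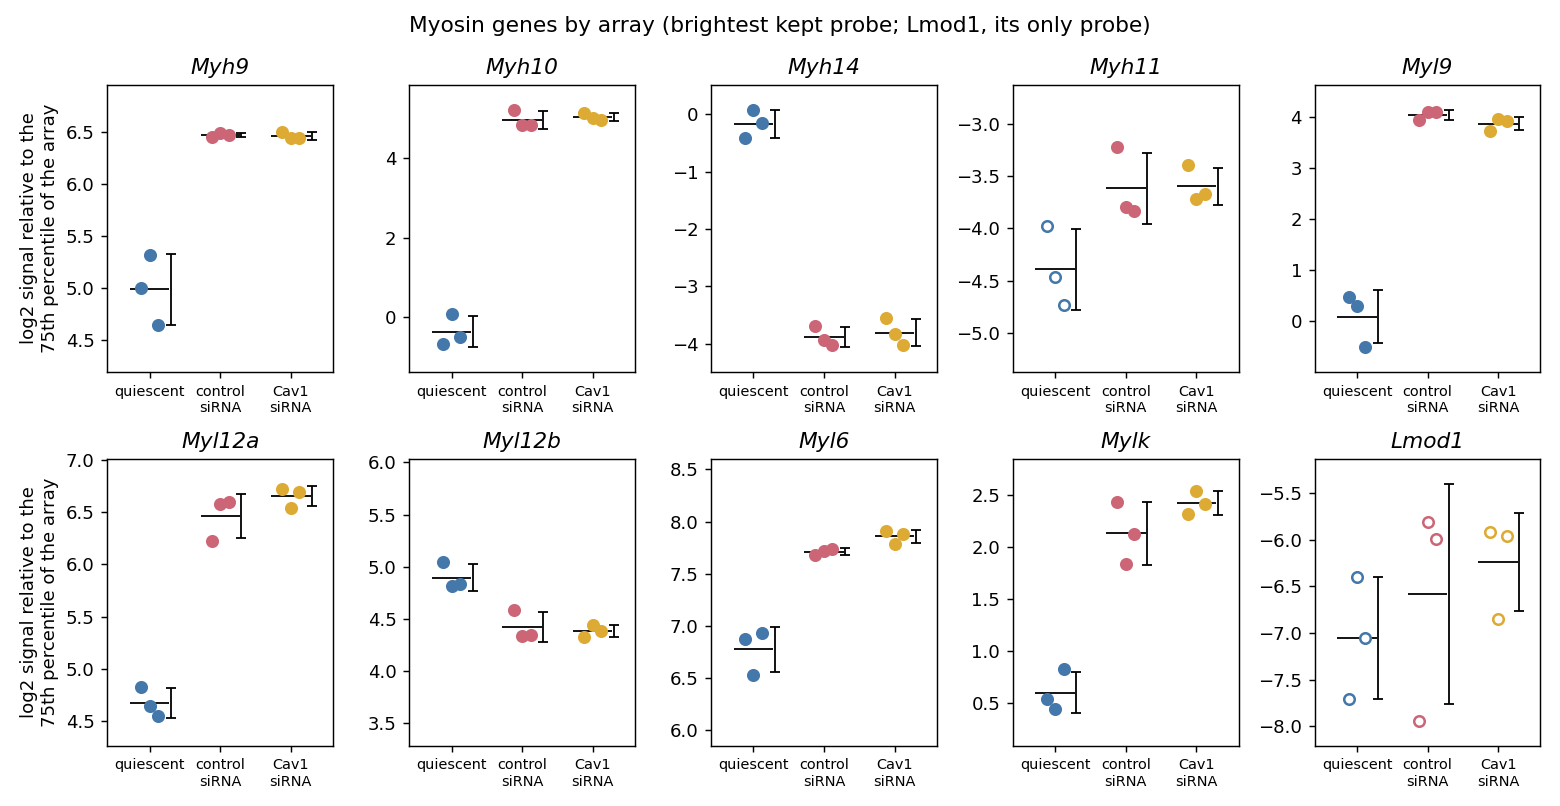
Each panel plots 1 gene: the log2 signal relative to the 75th percentile of the array (y axis) of the 3 quiescent, 3 control siRNA and 3 Cav1 siRNA arrays (points), with the group mean (bar) and SD (whisker). Open circles mark groups in which the probe was not above background on all 3 arrays; Myh10 rose and Myh14 fell most, and the control and Cav1 siRNA arrays lay close to each other.

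Among the heavy chains, Myh9 encodes non-muscle myosin IIA, the widespread motor of stress fibres. Its probe with the brightest signal (mm9 chr15:77591033-77591092, minus strand) read 5.00, 5.32 and 4.64 on the quiescent arrays and 6.45, 6.48 and 6.47 with control siRNA. All 3 cultured arrays lay above all quiescent ones, and the spread narrowed from an SD of 0.34 to 0.02. The change was 1.48 (SE 0.17; 2.79-fold; adjusted p = 6.25e-05). Another 2 of its 4 probes rose by 1.43 and 2.19. The remaining probe, from a non-RefSeq transcript, changed by 0.23 with an adjusted p of 0.82. On that probe quiescent array 2 read -3.41 and was the only quiescent array above background, while arrays 1 and 3 read -6.34 and -6.26.

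Myh10 encodes non-muscle myosin IIB, a slower motor that holds tension for longer. Its brightest probe (mm9 chr11:68629955-68630014, plus strand) read -0.68, 0.07 and -0.49 in quiescent cells and 5.22, 4.84 and 4.84 with control siRNA. The groups were separated by more than 4 log2 units, many times the SD of either group. The change of 5.33 (SE 0.21; 40.3-fold; adjusted p = 4.84e-08) was the largest rise among the tested genes of the set. A neighbouring RefSeq probe rose 46.6-fold. The other 2 kept probes were not above background on any quiescent array and gave bounds of at least 15.9-fold and at least 6.15-fold higher. Such a bound sets the mean of the brighter group against the lowest signal that counted as above background. The fifth probe, from a cDNA clone, was not above background on any array.

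Myh14, the heavy chain of non-muscle myosin IIC, went the other way. Its probe (mm9 chr7:51861189-51861248, minus strand) read -0.42, 0.06 and -0.15 in quiescent cells and -3.69, -3.93 and -4.03 with control siRNA, with no overlap. The change was -3.72 (SE 0.19; 13.1-fold lower; adjusted p = 2.05e-07). It was -2.28 at the smallest over 23 alternatives, with the normexp correction and quantile normalization, and was called in each of them. A probe to another Myh14 transcript did not pass the filter and read -5.88, -0.83 and -5.74 on the quiescent arrays, so that quiescent array 2 again stood apart from arrays 1 and 3. Non-muscle myosin IIC is known mainly from epithelia. Beside its fall, the hepatocyte markers Serpina1a, Ahsg and Cyp2e1 changed by -13.03, -10.50 and -12.80. The keratins Krt23 and Krt19 of the cholangiocyte list changed by -6.25 and -3.15. The epithelial keratins Krt18 (above background on 2 of 3 control siRNA arrays) and Krt8 changed by -10.09 and -9.27; both stand in the mesothelial list, whose other 6 tested genes rose. The summed signal of 5 cholangiocyte markers was 4.95 to 7.22 against 27.4 to 33.2, with 2 genes higher and 2 lower, and most of the later sum was the secreted phosphoprotein Spp1, which rose by 3.37. The part of these cells in the fall of Myh14 was not tested.

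Myh11 encodes the smooth muscle heavy chain, the classical marker of differentiated smooth muscle, and its 4 probes did not give it 1 direction. The brightest probe, from a cDNA clone (mm9 chr16:14249625-14249684, minus strand), read -3.97, -4.47 and -4.74 in quiescent cells and -3.22, -3.79 and -3.84 with control siRNA. The groups did not overlap, but the nearest arrays lay closer together than the SD of either group. Its change of 0.78 (SE 0.24; adjusted p = 0.018) had the opposite sign to that of the only other kept probe. That probe lies on the RefSeq transcript across an exon junction (its 60 bases span 2925 bases of mm9 chr16:14195223-14198147, minus strand) and is printed because the direction of Myh11 turns on it.
Myh11 RefSeq probe: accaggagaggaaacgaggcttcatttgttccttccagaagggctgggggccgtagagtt
The RefSeq probe read -4.58, -4.67 and -5.16 in quiescent cells and -5.57, -5.77 and -5.03 with control siRNA, a change of -0.65 (SE 0.28; adjusted p = 0.062 over all probes). These groups overlapped. The remaining 2 RefSeq probes did not pass the filter and were above background on 0 quiescent and on 0 or 1 control siRNA arrays. The cDNA probe itself changed by -0.16 (adjusted p = 0.37) with normexp and the 75th percentile, and by 0.30 with normexp and quantile normalization. It lost its call without quiescent array 3 (0.61, adjusted p = 0.058) and without control siRNA array 1 (0.58, adjusted p = 0.064), among others. No rise or fall of Myh11 is therefore reported, although it is 1 of the 7 genes counted as higher above.

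Differences between heavy chains within an array do not depend on the scaling factor of the array and show unequal change, not relative amounts. Myh10 minus Myh9 was -5.35 ± 0.29 in quiescent cells and -1.50 ± 0.24 with control siRNA (SD, n = 3 each), a change of 3.85 (exact two-sided permutation p = 0.1, the smallest that 3 against 3 allows). Myh14 minus Myh9 went from -5.16 ± 0.32 to -10.35 ± 0.19, a change of -5.20 (exact permutation p = 0.1). In both pairs the groups did not overlap on any array. Myh11 minus Myh9 went from -9.38 ± 0.41 to -10.08 ± 0.36 (exact permutation p = 0.2), with overlapping groups. With Cav1 siRNA the same 3 differences moved by 0.08, 0.09 and 0.03 from the control siRNA values (exact permutation p = 0.6, 0.6 and 1), within the spread between arrays.

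**Figure D2:**
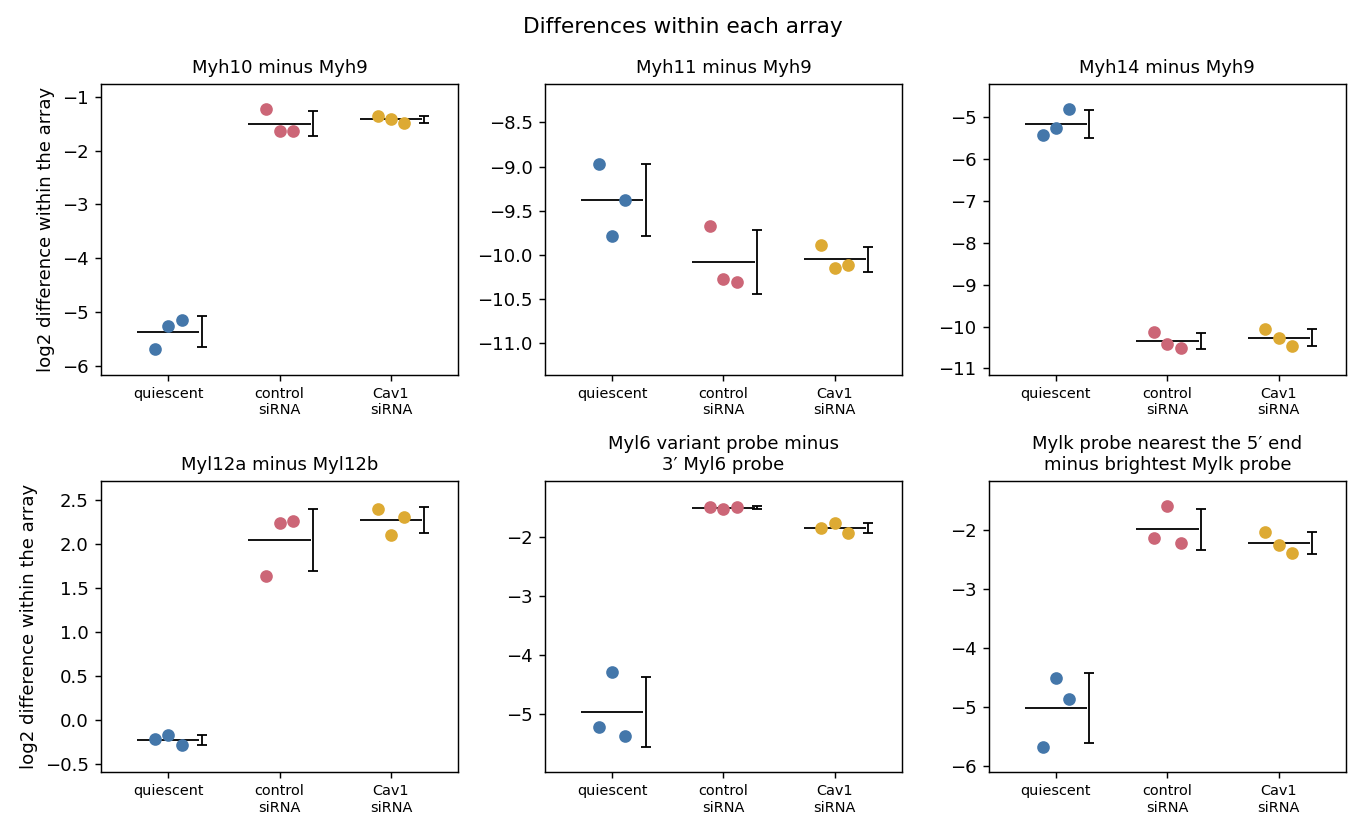
Log2 difference between pairs of probes on the same array (y axis) for the 3 quiescent, 3 control siRNA and 3 Cav1 siRNA arrays (points). The Myh10 minus Myh9 difference rose from -5.35 to -1.50 and the Myh14 minus Myh9 difference fell from -5.16 to -10.35, while the siRNA groups differed little.

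The regulatory light chains carry the serine and threonine that myosin light chain kinase phosphorylates. Myl9, the form shared by smooth muscle and myofibroblasts, read 0.46, 0.29 and -0.51 in quiescent cells and 3.93, 4.09 and 4.10 with control siRNA (mm9 chr2:156607301-156607360, plus strand). The groups lay far apart, and quiescent array 3 was the lowest. Myl9 rose by 3.96 (SE 0.24; 15.5-fold; adjusted p = 6.96e-07). Its second probe, from an unmapped expressed sequence tag, was not above background on any array.

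Myl12a and Myl12b are neighbouring genes on chromosome 17 for 2 near-identical non-muscle regulatory light chains, and they moved in opposite directions. Myl12a read 4.83, 4.64 and 4.55 in quiescent cells and 6.22, 6.57 and 6.60 with control siRNA (mm9 chr17:71343750-71343809, minus strand). It rose by 1.79 (SE 0.16; 3.47-fold; adjusted p = 7.72e-06), with no overlap. Myl12b read 5.04, 4.81 and 4.83 in quiescent cells and 4.59, 4.34 and 4.34 with control siRNA (mm9 chr17:71323508-71323567, minus strand). It fell by 0.47 (SE 0.14; 1.39-fold lower; adjusted p = 0.0129), again without overlap but over a narrow gap. A second Myl12b probe fell by 0.60 (adjusted p = 0.016 over all probes). Within an array, Myl12a minus Myl12b went from -0.23 ± 0.06 to 2.04 ± 0.35 (SD, n = 3 each; exact permutation p = 0.1). Transcripts this alike can cross-hybridise, which was not tested here. The fall of Myl12b was not called with median scaling (-0.33, adjusted p = 0.20) or with the slide as a block (-0.31, adjusted p = 0.19). Nor was it called without control siRNA array 2 (-0.43, adjusted p = 0.054), without control siRNA array 3 (-0.43, adjusted p = 0.055) or in the fit of these 2 groups alone (adjusted p = 0.052).

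Myl6 encodes the essential light chain of non-muscle and smooth muscle myosin, which comes in splice forms that differ by the use of 1 exon. Its 3 probes all rose, but by unequal amounts. The 3′-most probe (mm9 chr10:127927918-127927977, minus strand) read 6.87, 6.53 and 6.93 in quiescent cells and 7.68, 7.72 and 7.74 with control siRNA, a change of 0.93 (SE 0.14; 1.91-fold; adjusted p = 0.000356). The other probes both cross exon junctions upstream of it. They are printed because they target the same gene and differ in response: the first is annotated to the RefSeq transcript (mm9 chr10:127929163-127929304, minus strand), the second to a predicted transcript variant (mm9 chr10:127928787-127929140, minus strand).
Myl6 RefSeq junction probe: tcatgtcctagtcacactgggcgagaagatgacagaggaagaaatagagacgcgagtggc
Myl6 predicted variant probe: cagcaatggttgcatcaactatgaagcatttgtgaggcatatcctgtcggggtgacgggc
The RefSeq junction probe read 3.95, 3.35 and 3.18 in quiescent cells and 4.40, 5.47 and 5.52 with control siRNA, a rise of 1.64 (SE 0.31; 3.11-fold; adjusted p = 0.00141 over all probes). Control siRNA array 1 was the lowest of its group on it. The predicted variant probe read 1.64, 2.23 and 1.55 in quiescent cells and 6.19, 6.19 and 6.26 with control siRNA, a rise of 4.41 (SE 0.19; 21.2-fold; adjusted p = 7.7e-08 over all probes). Within an array, the predicted variant probe minus the 3′-most probe went from -4.97 ± 0.59 to -1.50 ± 0.02 (SD, n = 3 each; exact permutation p = 0.1), with no overlap. This pair of probes was chosen after its values were seen, and which Myl6 transcripts the variant probe binds was not tested.

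**Figure D3:**
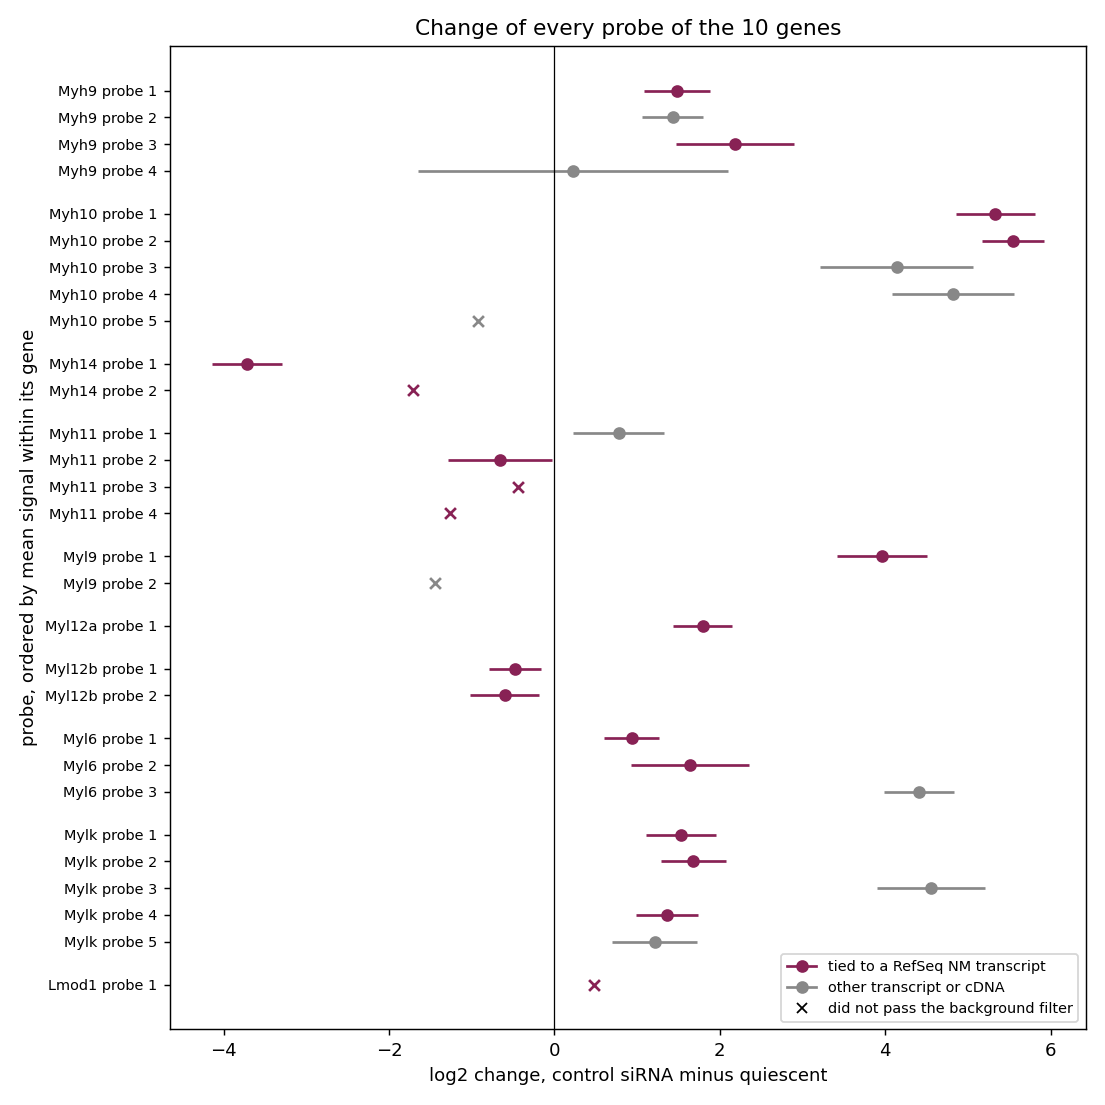
Log2 change from quiescent to control siRNA cells (x axis) of every probe of the 10 genes (y axis), with 95% confidence intervals from limma; colour marks probes tied to a RefSeq transcript, and crosses mark probes that did not pass the filter on background. Every kept probe of Myh9, Myh10, Myl6, Myl9, Myl12a and Mylk lies above 0, while those of Myh11 lie on both sides. Some kept probes of Myh9, Myh10 and Mylk, and those of Myh11, passed the filter only through cultured groups. For these the direction is not independent of the filter.

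Mylk encodes myosin light chain kinase, with a long non-muscle form and a short smooth muscle form that start at different promoters. Its brightest probe (mm9 chr16:34996839-34996898, plus strand) read 0.54, 0.45 and 0.83 in quiescent cells and 2.43, 1.83 and 2.12 with control siRNA. The groups did not overlap, and the change was 1.53 (SE 0.19; 2.88-fold; adjusted p = 7.64e-05). Another 3 probes rose by 1.68, 1.36 and 1.21. The fifth and most upstream probe (mm9 chr16:34877752-34877811, plus strand), from a non-RefSeq transcript, read -5.13, -4.06 and -4.03 in quiescent cells and 0.29, 0.24 and -0.10 with control siRNA. It rose by 4.55 (SE 0.29; 23.5-fold; adjusted p = 9.4e-07 over all probes) and was above background on 1 of the 3 quiescent arrays. Within an array, this probe minus the brightest one went from -5.01 ± 0.60 to -1.98 ± 0.34 (SD, n = 3 each; exact permutation p = 0.1). This pair, too, was chosen after its values were seen.

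Lmod1, a leiomodin that nucleates actin filaments in smooth muscle, had 1 probe (mm9 chr1:137264581-137264640, plus strand). It read -7.71, -6.40 and -7.06 in quiescent cells, -7.94, -5.81 and -5.99 with control siRNA and -5.92, -6.85 and -5.96 with Cav1 siRNA. It was above background on 0, 2 and 1 arrays of these groups, so no change could be measured.

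Over all probes, 23 of the 29 passed the filter, of which 18 were higher and 3 lower in control siRNA cells; 67.9% of all 36817 probes tested were called, 43% as higher and 25% as lower. The summed signal of 11 smooth muscle and pericyte markers was 62.0 to 68.9 in quiescent cells and 309 to 335 with control siRNA, with 5 genes higher and 4 lower. The genes that rose were Acta2 (8.37), Tagln (5.95), Cnn1 (5.44), Actg2 (2.24) and Notch3 (0.43), named after their values were seen, and Acta2 and Tagln made up most of the later sum. The melanoma cell adhesion molecule Mcam changed by -1.38 and the smoothelin gene Smtn by 0.39 (adjusted p = 0.17). The integrin Itga8 went from 1.24 ± 1.31 to a level not above background. Kcnj8 changed by -3.21 and Rgs5 was at least 67.6-fold lower, and with Mcam and Itga8 these were the 4 lower genes. Platelets are rich in Myh9, Myl9 and Myl6, and the sum of 8 platelet and megakaryocyte markers was 4.50 to 6.99 against 1.31 to 1.39, with 2 genes higher and 4 lower. The sum of 8 mesothelial markers was 34.2 to 60.3 against 30.5 to 31.3, with 6 higher and 2 lower, and that of 9 skeletal and cardiac muscle markers was 2.11 to 3.04 against 6.08 to 7.37, with 4 higher and 5 lower. The part of these cells in the rise of the myosin genes was not tested.

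All quiescent arrays and control siRNA array 1 shared slide 1, and the other arrays were on slide 2. Within slide 1, with 1 control siRNA array that the fit assumes to vary like the others, the changes were 1.46 for Myh9, 5.59 for Myh10, -3.52 for Myh14, 3.85 for Myl9, 1.55 for Myl12a and 1.83 for Mylk, all with an adjusted p under 0.05 in limma. The other 3 were not called there: Myl6 changed by 0.90 (adjusted p = 0.15), Myh11 by 1.17 (adjusted p = 0.10) and Myl12b by -0.31 (adjusted p = 0.60).

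Cav1 siRNA was next set against control siRNA in cultured cells. None of the 9 tested myosin genes was called by limma, and none had an unadjusted p under 0.05, the lowest being 0.153. Of all 23965 genes 0 (0%) were called, against 1189 at an unadjusted p under 0.05. The changes of the myosin genes ran from -0.17 for Myl9 to 0.29 for Mylk. On the brightest kept probe of each gene, the 95% confidence intervals lay within -0.72 and 0.71. A change of more than 1.64-fold in either direction lay outside each of these 9 intervals. Some other kept probes had wider intervals, which do not exclude such a change. These ran from -0.30 to 1.12 for the Myl6 RefSeq junction probe and from -2.22 to 1.53 for the Myh9 probe of lowest signal. With array weights, which called 656 genes, 0 of the 9 were called. The main fit estimates 1 spread per gene over all 9 arrays, so these p-values and intervals rest on the quiescent arrays as well. For Myl6 the SD was 0.21 in quiescent cells, 0.03 with control siRNA and 0.07 with Cav1 siRNA. In the fit of the 2 siRNA groups alone, 0 of the 9 were called as well.

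**Figure D4:**
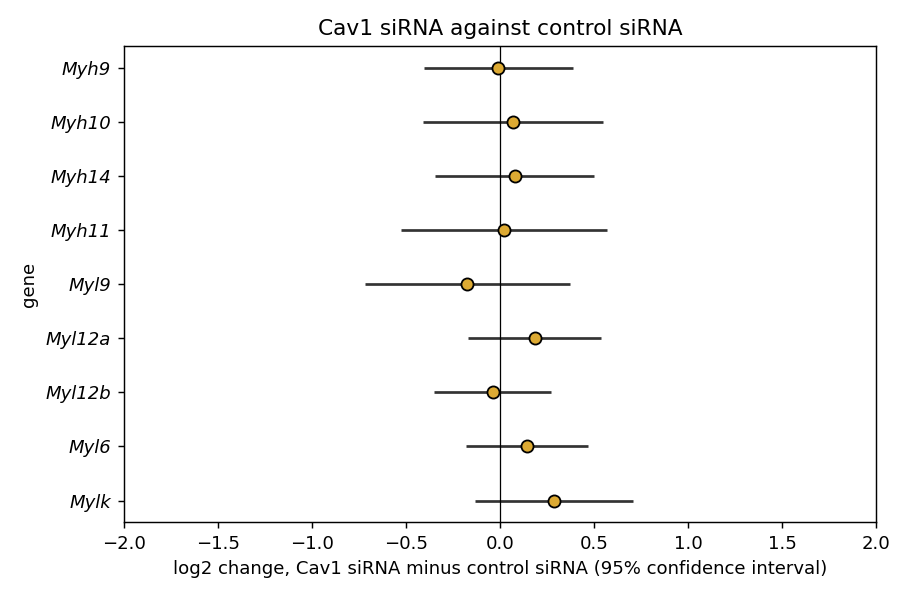
Log2 change from control siRNA to Cav1 siRNA cells (x axis) for the 9 tested genes (y axis), as the difference of group means of 3 arrays each (points) with 95% confidence intervals from limma (bars). Each gene is shown by its brightest kept probe. Every interval includes 0 and lies within -0.72 and 0.71.

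For the heavy chains, Myh9 read 6.50, 6.43 and 6.44 with Cav1 siRNA, a change of -0.01 (95% interval -0.40 to 0.39). Myh10 read 5.14, 5.01 and 4.96, a change of 0.07 (-0.41 to 0.55). Myh14 read -3.56, -3.84 and -4.02, a change of 0.08 (-0.34 to 0.50). On these brightest probes the Cav1 siRNA arrays overlapped the control siRNA arrays given above. The cDNA probe of Myh11 read -3.39, -3.72 and -3.67, a change of 0.02 (-0.53 to 0.57), also with overlap. The other kept probes of Myh10 changed by 0.27, 0.20 and 0.26, each with all Cav1 siRNA arrays above the control siRNA arrays. A Myh9 probe from a non-RefSeq transcript changed by -0.25, with all Cav1 siRNA arrays below, and the other Myh9 probes overlapped. For scale, 22.6% of all genes had groups that did not overlap, 8.61% with Cav1 siRNA higher and 14% lower. The share over all probes was not computed, and probes of the same gene were read on the same arrays. In this comparison limma called 0 of the 23 kept member probes and 0% of all probes.

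For the light chains and the kinase, Myl9 read 3.72, 3.96 and 3.92 with Cav1 siRNA, a change of -0.17 (-0.72 to 0.37). Myl12a read 6.72, 6.54 and 6.69 (change 0.18, -0.17 to 0.54) and Myl12b read 4.33, 4.44 and 4.38 (change -0.04, -0.35 to 0.27). These groups overlapped with control siRNA. Myl6 read 7.91, 7.78 and 7.88 (change 0.14, -0.18 to 0.47), with all 3 arrays above the control siRNA arrays. Its predicted variant probe changed by -0.20, with all 3 arrays below. The RefSeq junction probe of Myl6 changed by 0.41 (-0.30 to 1.12), with overlapping arrays. Groups without overlap are to be read here, too, against the 22.6% of all genes given above. Mylk read 2.31, 2.53 and 2.41 (change 0.29, -0.13 to 0.71). On this brightest probe the arrays overlapped the control siRNA arrays, and the change was 0.44 within slide 2 (limma, adjusted p = 0.28). Mylk probes that changed by 0.37 and 0.28 had all Cav1 siRNA arrays above the control siRNA arrays. The remaining Mylk probes, at 0.05 and -0.20, overlapped. In the Myl6 probe pair described above, the predicted variant probe minus the 3′-most probe was -1.85 ± 0.08 with Cav1 siRNA against -1.50 ± 0.02 with control siRNA (SD, n = 3 each; exact permutation p = 0.1, the smallest possible), a change of -0.35 without overlap. The Mylk probe pair moved by -0.24 (exact permutation p = 0.4) and Myl12a minus Myl12b by 0.22 (exact permutation p = 0.5).

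Cells with Cav1 siRNA were also compared with the quiescent cells, which shares the quiescent arrays with the first comparison. Again 7 of 9 genes were higher and 2 lower, where limma called 67.6% of all genes, 40.4% as higher and 27.2% as lower. The changes were 1.47 for Myh9, 5.40 for Myh10, -3.64 for Myh14, 3.78 for Myl9, 1.98 for Myl12a, -0.51 for Myl12b, 1.08 for Myl6 and 1.82 for Mylk. Myh11 again gave opposite signs on its cDNA probe (0.80) and its RefSeq probe (-0.59). The median over the 9 genes was 1.47, against 0.27 over all genes. No slide held both groups, so there is no value within a slide. With the slide as a block, which rests on the control siRNA arrays of both slides, limma called 8 of the 9 genes: Myh9 changed by 1.44, Myh10 by 5.78, Myh14 by -3.35, Myl9 by 3.62, Myl12a by 1.61, Myl6 by 1.03 and Mylk by 2.27. The eighth was the cDNA probe of Myh11 (1.39), and Myl12b was not called (-0.26, adjusted p = 0.41), nor was it with median scaling (-0.25, adjusted p = 0.31).

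The wider pathway was described by 9 gene lists with 118 genes, of which 99 passed the filter. From quiescent to control siRNA cells 46 of them rose and 33 fell, with a median change of 0.15 against 0.32 over all genes. Their share of calls is to be read against the 68.1% of all genes. With Cav1 siRNA against control siRNA limma called 0 of the 99. With array weights, which called 656 of all genes, it called 1 kinase and 1 assembly partner.

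Among 14 tested kinases that act on myosin light chains or their phosphatase, 7 rose and 3 fell. The death-associated kinase Dapk2 fell by 6.16 on the log2 scale, the kinase Mylk3, known from heart muscle, was at least 6.52-fold higher, and the cGMP-dependent kinase Prkg1 rose by 2.41. Of 12 genes of myosin phosphatase and its inhibitors, 6 rose and 4 fell. The phosphatase inhibitor Ppp1r14a (CPI-17) was at least 37.7-fold lower and the regulatory subunit Ppp1r16b at least 328-fold lower. Mprip, which tethers myosin phosphatase to actin, rose by 2.40. Both directions occurred in both lists, with medians of 0.57 for the kinases and 0.26 for the phosphatase.

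RhoA, its exchange factors and the contractile receptors gave 5 rises and 8 falls among 15 genes, with a median of -0.42. The angiotensin receptor Agtr1a was at least 365-fold lower and the endothelin receptor Ednra changed by -4.63, above background on 2 of 3 control siRNA arrays. The lysophosphatidic acid receptor Lpar1 rose by 6.78 and was above background on 1 of 3 quiescent arrays. Calmodulin and calcium handling gave 8 rises and 4 falls among 12 genes, with a median of 0.84. The L-type calcium channel Cacna1c was at least 122-fold higher, the inositol trisphosphate receptor Itpr1 rose by 2.28, and the plasma membrane calcium pump Atp2b4 was at least 4.91-fold lower.

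Among 14 partners of myosin filament assembly 7 rose and 3 fell, with a median of 0.22. The actin bundling partner Synpo (synaptopodin) rose by 6.18 and Anln (anillin), a scaffold of the contractile ring, by 5.24, while the muscle myosin chaperone Unc45b changed by -6.77. The other conventional heavy chains, most of them of striated muscle, passed the filter in 3 of 10 cases. Of these the cardiac and slow muscle gene Myh7 rose by 1.30, Myh4 changed by -1.02 and Myh13 was at least 3.38-fold lower, all at low signal. Of the other light chains 5 of 9 passed, with 1 rise, of Myl6b by 2.11, and 1 fall, of Mylpf by 0.59. The leiomodins and tropomodulins passed in 4 of 6 cases, with Tmod2 at least 1.34-fold higher and Tmod3 changed by -0.68. Unconventional myosins gave 10 rises and 7 falls among 20 genes, with a median of 0.60: Myo1g and Myo1f, known from blood cells, changed by -6.29 and -3.82, and the vesicle motor Myo5a rose by 4.09. Beside these falls the neutrophil marker S100a9 was at least 733-fold lower. The lymphocyte markers Gzma and Nkg7 changed by -10.77 and -8.84, above background on 2 and 1 of 3 control siRNA arrays. The part of these cells was not tested.

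**Figure D5:**
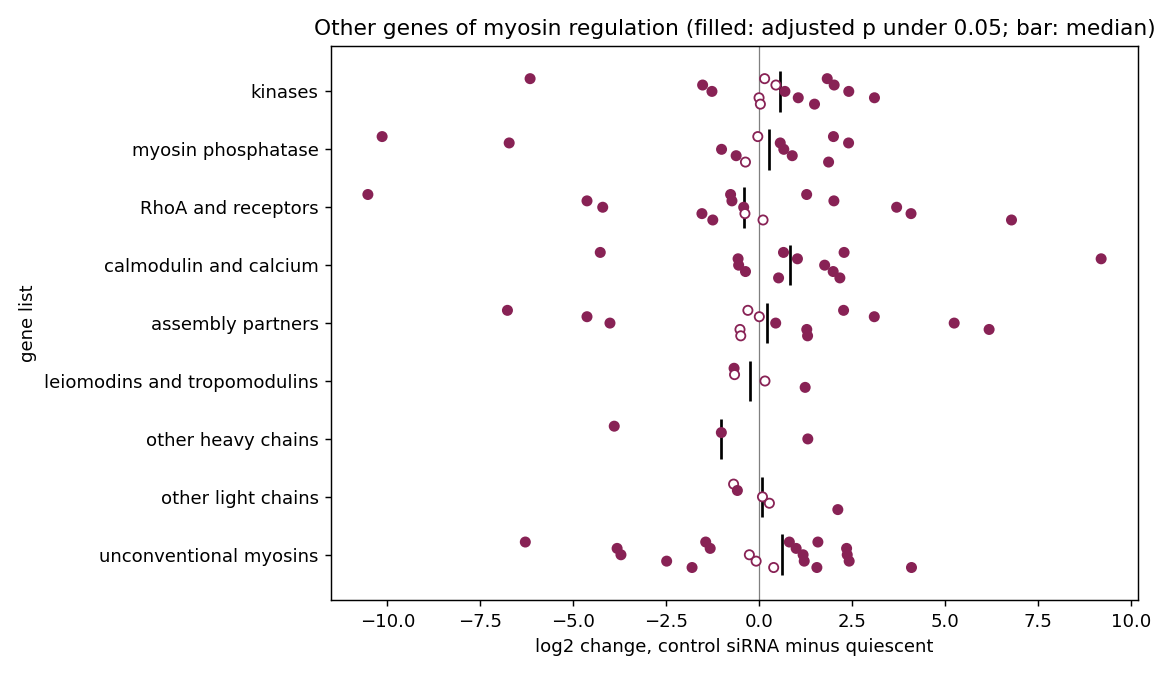
Log2 change from quiescent to control siRNA cells (x axis) of the tested genes of the 9 pathway lists (y axis); each point is 1 gene, filled where the adjusted p was under 0.05, and the bar is the median of the list. Every list holds genes on both sides of 0, and the medians lie between -1.02 and 0.84.

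The genes nearest to a member in their pattern over the 9 arrays were sought by Euclidean distance between log2 signals, each centred on its own mean. For Myl9 these were Hmgn3 (distance 0.301, r = 0.9987), Uhrf1 (0.353, r = 0.998) and Kntc1 (0.381, r = 0.9982). For Mylk they were Nupl2 (0.328, r = 0.991), Plscr1 (0.355, r = 0.9895) and Asb1 (0.362, r = 0.989). The cDNA probe of Myh11 lay nearest to Tnfsf12 (0.419, r = 0.9513), Bcl2 (0.433, r = 0.9497) and Syngr4 (0.469, r = 0.971). The 9 arrays share the step from quiescent to cultured cells, which is part of each correlation, so these values are descriptions without a test.

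Many contractile genes carry a CArG box, the sequence bound by serum response factor. The promoters of the members were searched for it because Myl9 and the other light chains moved with culture, Myl12b downward. RefSeq promoter windows (GRCm38.p6, 250 bases before to 50 after a start site) were matched for 9 of the 10 genes, in 10 windows; Myh11 had none. A CArG box on either strand lay in 2 of the 10 windows, those of Myl9 and of 1 of 2 listed starts of Myl6, and in 1.63% of all 32851 windows. The 250 bases before each start site are printed, on the gene's own strand with the box in capitals: Myl9 from chr2:156775214-156775463 (plus strand), where the box begins 161 bases before the start site, and Myl6 from chr10:128493010-128493259 (minus strand), where it begins 50 bases before.
Myl9: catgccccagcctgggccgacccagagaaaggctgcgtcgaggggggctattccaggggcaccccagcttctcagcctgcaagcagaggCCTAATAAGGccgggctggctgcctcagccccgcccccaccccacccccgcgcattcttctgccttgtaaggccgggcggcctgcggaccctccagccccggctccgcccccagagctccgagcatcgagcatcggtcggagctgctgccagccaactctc
Myl6: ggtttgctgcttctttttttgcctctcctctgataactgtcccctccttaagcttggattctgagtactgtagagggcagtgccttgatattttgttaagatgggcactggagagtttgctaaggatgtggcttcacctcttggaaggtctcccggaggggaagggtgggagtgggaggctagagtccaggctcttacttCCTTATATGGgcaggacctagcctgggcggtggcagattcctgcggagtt
Both genes rose in culture, Myl9 15.5-fold and the 3′-most probe of Myl6 1.91-fold. Without a box in their windows, Myh9, Myh10 (40.3-fold), Myl12a and Mylk rose too, and Myh14 and Myl12b fell. A part of the box in these changes was not tested. The letters CATTCC or their reverse complement GGAATG, a core of sites bound by TEAD factors, lay in 4 of the 10 windows, those of Lmod1, Myh10, Myl12a and Mylk, and in 14.7% of all windows. A match describes these letters only and is not a measured binding site.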

How the data were processed

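Agilent Feature Extraction 10.7.1.1 made the scanner files, per the submitters' processing notes, and the probes are placed on mm9 per the file headers. The deposited intensity of each spot is the processed signal, background-subtracted by the authors' scanner software; the value table equals its mean per probe, 100% of values within 1%. From these, log2 signals minus the 75th percentile of each array were computed here. Outlier spots were left out, spots of a probe were averaged, and the filter on background asked for a share of at least 0.5 of a probe's spots flagged well above background, on every array of 1 or more groups. The kept probe with the brightest mean stood for its gene. No spot was saturated, and 3 arrays per group limit the precision. limma 3.58.1 in R 4.3.3 fitted all 9 arrays with a mean per group; p-values were adjusted by Benjamini-Hochberg over 23965 genes, or over 36817 probes for single probes, and called under 0.05. The fit recovered large known changes in simulated data with few changed genes and the same spread in every group, unlike these arrays. Probes were named by RefSeq accession (32994) or synonym (520), and otherwise as in the files. No annotation of mm9 was used, so exon and UTR positions are not given. The members, gene lists and tests were chosen with earlier results of these data known. All members are named, and per pathway list up to 3 genes with the largest called change. Marker genes named are among the 3 with the highest quiescent signal of their list. In the smooth muscle and pericyte list every called gene is named as well. The alternatives were other background corrections, scalings and filters, the probe rule, the deposited table, array weights, the slide or the replicate number as a block, and each array left out.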

Additional observations from a re-analysis of the deposited data

How the results depend on the processing

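The count of called myosin genes in control siRNA against quiescent cells stayed between 6 (within slide 1) and 9 over 23 alternatives. Against control siRNA the count with Cav1 siRNA was 0 in all of them, and Cav1 siRNA against quiescent gave 8 or 9. Leaving out single arrays gave 8 to 9, 0 to 0 and 8 to 9. Same-number correlations between arrays of different groups were -0.114 to 0.173. The same-number array was the best match only for array 3 of control with Cav1 siRNA (0.173). With 3 arrays per group these values cannot settle whether replicate numbers pair the arrays. The fit with the replicate number as a block called 9, 0 and 9 members and changed no member's call. Myh11 reversed with normexp and the 75th percentile (-0.16 for control siRNA and -0.11 for Cav1 siRNA against quiescent), not with normexp and quantile normalization (0.30 and 0.37), and on its RefSeq probe (-0.65 and -0.59), a probe choice made after seeing the data. Of the within-array differences from quiescent to control siRNA, Myh11 minus Myh9 was -1.71 with normexp and the 75th percentile, -0.26 with quantile normalization and -1.27 over the mean of probes. Myh14 minus Myh9 was -3.98 under the first of these settings and -4.90 with quantile normalization, which gave 4.12 for Myh10 minus Myh9. With normexp and quantile normalization Myh14 changed by -2.28 and Myh9 by 1.18. From control to Cav1 siRNA, Myh14 minus Myh9 was 0.34 with quantile normalization, and Myh10 minus Myh9 was 0.33 over the mean of probes; the cause was not tested. Among all genes, 7615 in place of 16328 were called within slide 1, and 10141 in place of 16210 with the slide as a block for Cav1 siRNA against quiescent. For Cav1 against control siRNA, where 0 were called, the count was 656 with array weights, 7 or 5 with normexp, 6 among probes above background on all 9 arrays, 5 in the fit of the 2 groups alone and 2 without quiescent array 1. Among the pathway lists, 8 of 9 counts moved by over 1.5 times in the first comparison under at least 1 alternative, in 17 of 207 recomputed counts. Slide 1 held 1 control siRNA array, which limits the within-slide values; signals not above background, as for Lmod1, carry no order.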
